A study of Caenorhabditis elegans with 3 samples.

Results

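Cyclins and the kinases they switch on were followed as 10 genes of the nematode Caenorhabditis elegans, chosen by name as core genes of the cell cycle. They are 4 B-type cyclin genes (cyb-1, cyb-2.1, cyb-2.2 and cyb-3), the E-type cye-1, the D-type cyd-1, the A-type cya-1, the kinase genes cdk-1 and cdk-2, and the phosphatase gene cdc-25.1. Of these, 8 had a probe of their own and were measured on all arrays, among 14686 named genes and 19580 features tested. The near relatives cyb-2.1 and cyb-2.2 share a single probe, so neither has a value here. The choice of genes was made with earlier results of these data known.

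Larvae of genotype glp-4, taken at stage L3, gave the RNA of 3 two-channel arrays (preps 1, 3 and 4), each set against the same kind of control, a mixed reference of wild-type RNA. The labels give no allele, growth temperature or age in hours for the glp-4 animals, and do not say what the reference pools. Mutants of glp-4, which encodes a valyl-tRNA synthetase, serve as worms with an underproliferated germ line. The only probe of glp-4 is shared with another gene, so the genotype could not be checked on its own transcript. Genotype and stage differ together from the reference and cannot be told apart.

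Cyclins bind cyclin-dependent kinases and set when each kinase acts. D-type cyclin with CDK-4 and E-type cyclin with CDK-2 carry cells through the first gap phase and into DNA replication, and B-type cyclin with CDK-1 drives entry into mitosis and meiotic divisions. CDC-25 phosphatases remove the inhibitory phosphate that WEE1-type kinases place on CDK-1. In the worm, the germ line holds dividing stem cells and meiotic cells, and oocytes load the embryo with cell cycle transcripts. L3 larvae also have dividing somatic cells, in the skin, the vulval precursors and the somatic gonad.

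All values below are log2 ratios, with each array centred on its median, and a positive one is read as higher in glp-4 L3 than in the reference. The labels do not state this direction. It is the likely one, because glp-4 is the second channel and germline genes lie below 0 under it. If the ratio ran the other way, every direction would turn while sizes and counts would stand. Mean ± SD is over the 3 arrays. The labels do not say whether the preps came from separate cultures, so the p-values reflect only how far these samples differ, a spread that may be technical. Values were obtained for 21239 to 21462 probes per array, and the SD over probes was 0.71, 0.963 and 1.139 for preps 1, 3 and 4. The arrays of preps 3 and 4 also share letters in their titles, and what reads as a date, that set prep 1 apart.

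Every measured gene of the group lay below the array median on all 3 arrays, and 6 of the 8 were lower in glp-4 L3 past an adjusted p of 0.05 (limma, Benjamini-Hochberg over all features), with none higher. Over all features, 8.37% were lower and 8.26% higher by the same rule, and 29.4% lay below the median on every array. At an unadjusted limma p under 0.05, 7 of the 8 were lower and 0 higher, beside 18.2% and 17.1% of all features. The median of the 8 means was -1.38, beside 0.00 over all features tested. The 6 were cyb-3, cyb-1, cdk-1, cdc-25.1, cye-1 and cya-1. The calls of cyb-3, cyb-1, cdk-1 and cdc-25.1 held with any single prep left out, and those of cye-1 and cya-1 did not.

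**Figure D1:**
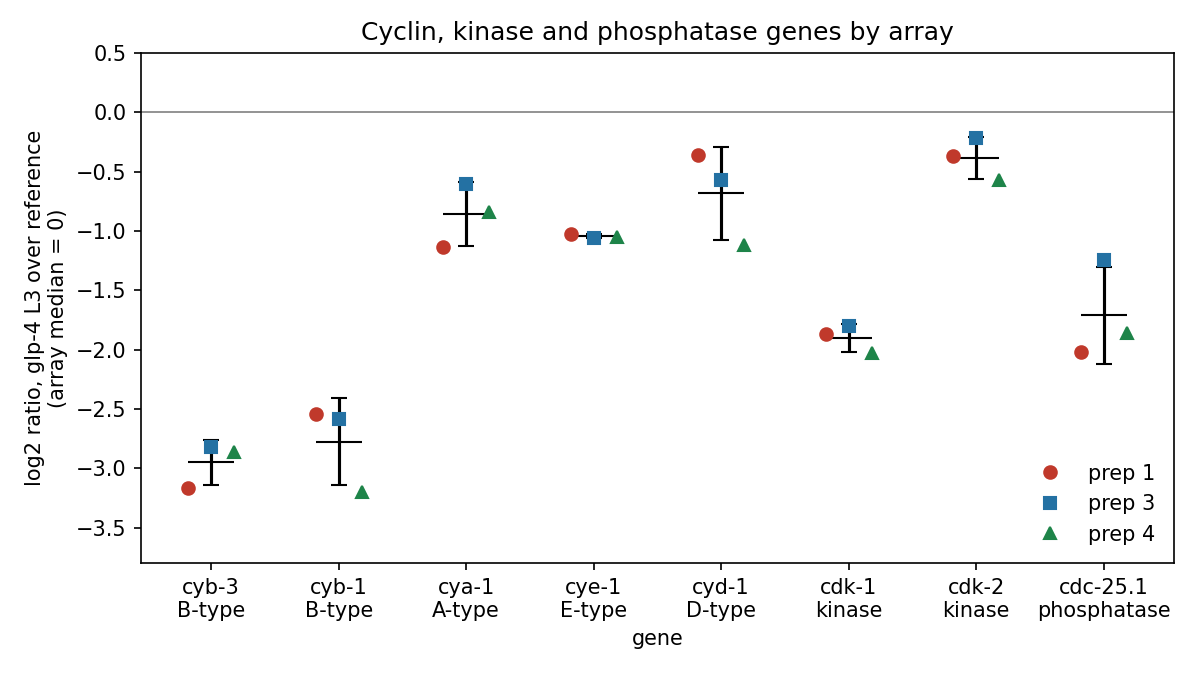
Log2 ratio of glp-4 L3 over reference for the 8 measured genes (y axis, array median set to 0), with 1 point for each of preps 1, 3 and 4, a bar at the mean and whiskers of 1 SD. Both B-type genes lie below -2.5 on every array, while cyd-1 and cdk-2 stay above -1.2.

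The B-type cyclin genes were the lowest of the group. The gene cyb-3 (T06E6.2), whose product acts with CDK-1 in mitosis and chromosome segregation of the early embryo, was at -3.16 on the prep 1 array, -2.82 on that of prep 3 and -2.86 on that of prep 4. Its 3 values were close together, and the one of prep 1 was lowest. The mean of -2.95 ± 0.19 is 7.73-fold lower in glp-4 L3, with a limma 95% confidence interval of -3.38 to -2.52 on the log2 scale (limma adjusted p = 0.00294).

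The gene cyb-1 (ZC168.4), the other B-type partner of CDK-1 measured here, was at -2.54 on the prep 1 array, -2.58 on that of prep 3 and -3.20 on that of prep 4. Here prep 4 was lowest and the other arrays were alike. The mean of -2.77 ± 0.37 is 6.84-fold lower, with a 95% interval of -3.29 to -2.26 (limma adjusted p = 0.00301). The pair had no settled order: cyb-1 minus cyb-3 was 0.62 on the prep 1 array, 0.24 on that of prep 3 and -0.34 on that of prep 4.

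The A-type cyclin gene cya-1 (ZK507.6) was at -1.13 on the prep 1 array, -0.60 on that of prep 3 and -0.84 on that of prep 4. Its mean of -0.86 ± 0.27 is 1.81-fold lower (limma adjusted p = 0.0349), and it lay 1.41, 1.98 and 2.36 log2 units above cyb-1 on the arrays of preps 1, 3 and 4. The call was lost with the arrays scaled to the same spread (adjusted p = 0.0867), without prep 3 (adjusted p = 0.163) and without prep 4 (adjusted p = 0.13).

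The E-type cyclin gene cye-1 (C37A2.4), which with CDK-2 starts DNA replication, was at -1.02 on the prep 1 array, -1.06 on that of prep 3 and -1.05 on that of prep 4. No other measured gene of the group varied so little between the arrays, and its mean of -1.04 ± 0.02 is 2.06-fold lower (limma adjusted p = 0.0132). The size kept its value when a prep was left out, but the call did not: the adjusted p was 0.138 without prep 3 and 0.0655 without prep 4.

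The D-type cyclin gene cyd-1 (Y38F1A.5), needed for passage through the first gap phase, was at -0.36 on the prep 1 array, -0.57 on that of prep 3 and -1.12 on that of prep 4. Its array of prep 4 stood below the others. The mean of -0.68 ± 0.39 did not pass the threshold (limma adjusted p = 0.0846, with a 95% interval of -1.21 to -0.15). It passed on preps 3 and 4 alone, at -0.84 (adjusted p = 0.0355), and with array weights, a setting chosen after the data were seen (adjusted p = 0.0243).

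Each of the B-type genes lay below cyd-1 and cye-1 on every array. The difference cyb-1 minus cyd-1 was -2.18 on the prep 1 array, -2.02 on that of prep 3 and -2.08 on that of prep 4, so the gap between these genes varied little (-2.09 ± 0.08, or 4.27-fold). For cyb-3 minus cyd-1 it was -2.81 on the prep 1 array, -2.26 on that of prep 3 and -1.74 on that of prep 4, a gap of the same sign but of more varied size (-2.27 ± 0.53). Against cye-1, the mean gap was -1.73 ± 0.36 for cyb-1 and -1.90 ± 0.20 for cyb-3.

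All 4 pairs could be compared on all 3 arrays, and in each the gap was larger than its spread between arrays. The exact two-sided sign-flip permutation test gave p = 0.25 for every pair, and 0.25 after Benjamini-Hochberg adjustment over the 4 pairs. That is the smallest p this test can give with 3 arrays, so it could not pass 0.05 whatever the size of the gap. Centring does not move these gaps, since it shifts both genes of an array alike. A 1-log2-unit gap in the ratio says that the genes differ in how far each lies from the reference, and says nothing of which is the more abundant.

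**Figure D2:**
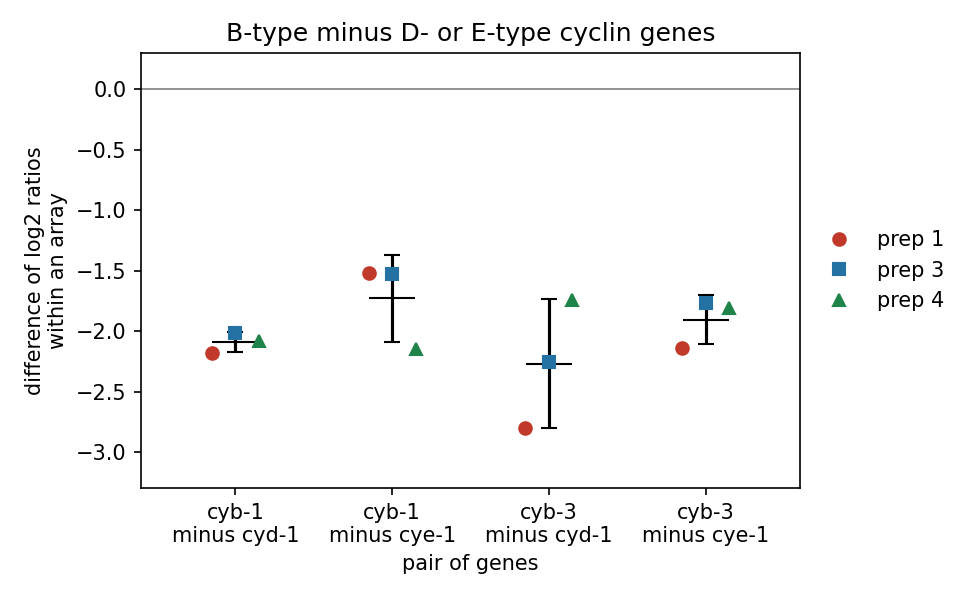
Difference of log2 ratios within an array (y axis) for each B-type gene minus cyd-1 or cye-1, with a point for each prep, a bar at the mean and whiskers of 1 SD. All 12 points lie below 0, between -2.81 and -1.52.

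The kinase genes also stood apart from each other. The gene cdk-1 (T05G5.3), which encodes the mitotic kinase that B-type cyclins activate, was at -1.87 on the prep 1 array, -1.80 on that of prep 3 and -2.03 on that of prep 4. These values are within 0.23 log2 units of each other, and the mean of -1.90 ± 0.12 is 3.73-fold lower in glp-4 L3 (limma adjusted p = 0.00393). The gene cdk-2 (K03E5.3), which encodes the kinase paired with E-type cyclin, was at -0.37 on the prep 1 array, -0.22 on that of prep 3 and -0.57 on that of prep 4.

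The cdk-2 mean of -0.39 ± 0.18 did not pass (limma adjusted p = 0.169), and its 95% interval of -0.81 to 0.04 includes no change. It was past the threshold in none of the 11 alternative settings, where the adjusted p ranged between 0.133 and 0.511. Within each array, cdk-1 lay below cdk-2 by nearly the same amount, with a difference of -1.50 on the prep 1 array, -1.58 on that of prep 3 and -1.45 on that of prep 4.

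The genes cdk-1 and cdk-2 lay nearer to the reference than those of their cyclins. The difference cdk-1 minus cyb-1 was 0.67 on the prep 1 array, 0.79 on that of prep 3 and 1.17 on that of prep 4, so the sign was the same on each array. For cdk-1 minus cyb-3 the mean was 1.05 ± 0.23. The same held for cdk-2 minus cye-1, at 0.66, 0.84 and 0.48 with preps 1, 3 and 4. The D-type pair was less steady: cyd-1 minus cdk-4 was -0.01, -0.88 and -1.35 with preps 1, 3 and 4, so both genes had about the same ratio with prep 1.

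The phosphatase gene cdc-25.1 (K06A5.7), a germline and early embryonic activator of CDK-1, was at -2.02 on the prep 1 array, -1.25 on that of prep 3 and -1.86 on that of prep 4. The array of prep 3 was the least low. Its mean of -1.71 ± 0.41 is 3.27-fold lower (limma adjusted p = 0.00837), and cdc-25.1 and cdk-1 changed places between arrays (difference 0.19 ± 0.35).

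Ordered by mean, the genes ran from cyb-3 through cyb-1, cdk-1, cdc-25.1, cye-1, cya-1 and cyd-1 to cdk-2. Only 2 of the 7 steps between neighbours kept their sign on every array. These were the step between cyb-1 and cdk-1 (-0.88 ± 0.26) and that between cdc-25.1 and cye-1 (-0.66 ± 0.42). Among neighbours, they divide the order into the B-type genes, then cdk-1 with cdc-25.1, then cye-1, cya-1, cyd-1 and cdk-2. The other neighbours overlapped. The last set was not uniform, since cdk-2 lay above cye-1 on every array (0.66 ± 0.18) and above cya-1 on each.

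Because the arrays differ in spread, the place of each gene among all features of its array was also taken. For cyb-3, 0.312% of features lay at or below it on the prep 1 array, 1.04% on that of prep 3 and 1.37% on that of prep 4. For cyb-1 the shares were 0.613%, 1.37% and 1.03%. Both were thus near the bottom of each array, whatever its spread.

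The gene cdk-1 stood at 1.42%, 3.52% and 3.50% with preps 1, 3 and 4, and cdc-25.1 at 1.22%, 7.10% and 4.37%. For cye-1 the steady log2 ratio hid a moving place: 5.46% on the prep 1 array, 9.46% on that of prep 3 and 11.95% on that of prep 4. The shares of cyd-1 were 20.04%, 19.99% and 10.9%, and those of cdk-2 were 19.5%, 36.3% and 23.8%. On the array of prep 4, cyd-1 lay below cye-1, and on the others above it.

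**Figure D3:**
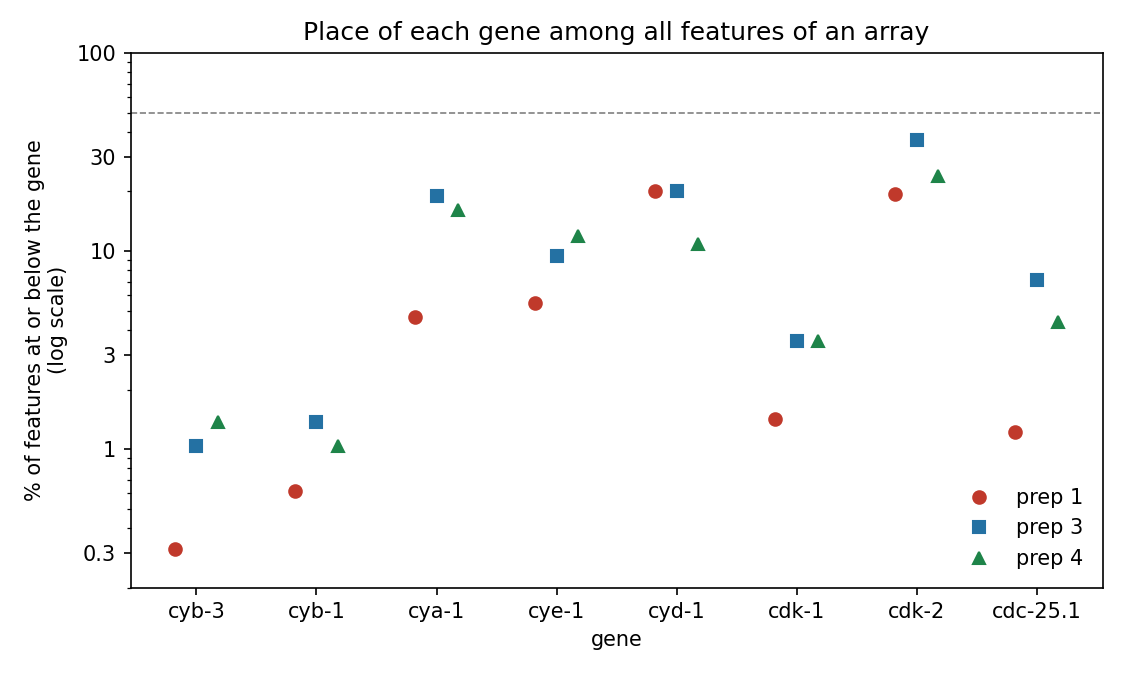
Share of all features of an array that lie at or below each gene (y axis, percent, log scale; dashed line at the median), with a point for each prep. The B-type genes lie between 0.312% and 1.37%, and cdk-2 between 19.5% and 36.3%.

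Genes that act directly on these kinases were split. Among 9 measured regulators 3 were lower and none higher, beside 8.37% and 8.26% of all features, and the list median was -0.21. The gene wee-1.3 (Y53C12A.1), whose product holds CDK-1 inactive in oocytes, was at -1.69 on the prep 1 array, -2.13 on that of prep 3 and -2.28 on that of prep 4. This mean of -2.04 ± 0.31 (limma adjusted p = 0.00473) is close to that of cdk-1, and the call missed narrowly without prep 3 (adjusted p = 0.0512). The gene cks-1, a small subunit that binds the kinase, was at -1.94 ± 0.25, and the phosphatase gene cdc-14 was at -0.74 ± 0.15. The cdc-14 call was lost without prep 3 (adjusted p = 0.228), without prep 4 (adjusted p = 0.144) and with the arrays scaled to the same spread (adjusted p = 0.079).

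The inhibitor genes did not pass in the main fit. The gene cki-1, a brake on division in somatic lineages, was at 0.60 on the prep 1 array, -0.15 on that of prep 3 and -0.32 on that of prep 4, so its sign differed between arrays (limma adjusted p = 0.91). Its neighbour cki-2 was at -0.58 ± 0.08 (adjusted p = 0.0667), below the median on every array. With array weights, a setting chosen after the data were seen, cki-2 passed (limma adjusted p = 0.0208). The related phosphatase gene cdc-25.2 was at -0.21 ± 0.18 (adjusted p = 0.408), beside -1.71 for cdc-25.1.

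No other cyclin-dependent kinase or cyclin gene with a value passed. Of 9 other kinase genes listed, 7 were measured and none was called, with a median of -0.05 and a range of -0.44 to 0.06. By the same adjusted p, 8.37% of all features were lower and 8.26% higher. No call among so few genes is near that share. At an unadjusted limma p under 0.05 there was 1 lower and 0 higher, beside 18.2% and 17.1% of all features. Among the 7 was cdk-4, the partner of D-type cyclin, at -0.35 on the prep 1 array, 0.31 on that of prep 3 and 0.23 on that of prep 4 (mean 0.06 ± 0.36). Of 7 other cyclin genes listed, 4 were measured and none was called, with a median of -0.11 and a range of -0.60 to 0.10. This too is near the 8.37% and 8.26% of all features. The lowest, ccnk-1, named after its value was seen, was below the median on all 3 arrays (-0.60 ± 0.19, limma adjusted p = 0.0722), and with array weights it passed (adjusted p = 0.0409). At an unadjusted limma p under 0.05 it was the 1 lower cyclin gene, with 0 higher, beside the same 18.2% and 17.1%. Most of these kinases and cyclins act in transcription or in neurons rather than in the division cycle.

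Mitotic and checkpoint kinase genes had 5 lower and none higher among 9 measured (median -1.16), beside 8.37% and 8.26% of all features. The polo-like kinase genes plk-3 and plk-1 were at -3.70 ± 0.51 and -1.88 ± 0.21. The Aurora kinase genes air-2, of the chromosomal passenger complex, and air-1, of the centrosome, were at -1.94 ± 0.44 and -1.28 ± 0.66. The last of the 5, bub-1, a kinetochore checkpoint kinase gene named here after its value was seen, was at -1.16 ± 0.29. The calls of air-1 and bub-1 were lost without prep 3 (adjusted p = 0.171 and 0.0852) and without prep 4 (0.108 and 0.0778), and that of air-2 without prep 3 (0.0616).

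The genes that destroy cyclins held 5 lower and none higher among 16 measured (median -0.44), beside 8.37% and 8.26% of all features. The anaphase-promoting complex gene apc-10 was at -2.08 ± 0.18 and its activator gene fzy-1, the worm Cdc20, at -1.68 ± 0.09. The related activator gene fzr-1 was at -0.06 ± 0.08 and did not pass (adjusted p = 0.8); it, like apc-2, was named after its value was seen. The subunit genes emb-27 and apc-2 were at -0.84 ± 0.27 and -0.73 ± 0.13. The Skp1-related gene skr-2 was at -1.95 ± 0.19. It has a near copy in skr-1, and probes of such copies can share signal. The skr-1 probe was at -0.48 ± 0.14 (limma adjusted p = 0.107), a value given here after it was seen. The fzy-1 and skr-2 calls were narrowly lost without prep 3 (adjusted p = 0.0565 and 0.0501), and those of emb-27 and apc-2 were lost without prep 3 (0.153 and 0.236), without prep 4 (0.163 and 0.181) and with the arrays scaled to the same spread (0.0701 and 0.0572).

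Regulators of cell cycle transcription, the Rb, E2F and DREAM genes, had 5 lower and none higher among 9 measured (median -0.69). The shares of all features were 8.37% and 8.26%. They were lin-54 (-1.74 ± 0.09), a DNA-binding subunit of DREAM, lin-52 (-1.12 ± 0.17), the E2F partner dpl-1 (-1.101 ± 0.22), lin-53 (-0.96 ± 0.34) and, named after its value was seen, lin-9 (-0.69 ± 0.12). All 5 calls were lost without prep 3, where the adjusted p ran between 0.0538 for lin-54 and 0.246 for lin-9. Without prep 4, lin-54 alone of the 5 passed. With the arrays scaled to the same spread, dpl-1 (0.0591), lin-9 (0.0743) and lin-53 (0.0876) did not pass.

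Over all 6 of these lists, 18 of 54 measured genes were lower and none higher, beside the 8.37% and 8.26% of all features. By unadjusted limma p under 0.05, the counts were 28 lower and 0 higher, beside 18.2% and 17.1% of all features. The lower count was 21 without prep 1, 4 without prep 3 and 9 without prep 4. The count over all features moved too, with 3464 lower without prep 1, beside 1638 with no prep left out. These list counts thus follow the total number of calls and are no result about the cell cycle genes.

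Of the cell type markers, those of the germ line lay on the same side as the cyclin genes. All 13 were lower, at a median of -1.74 on the prep 1 array, -2.03 on that of prep 3 and -2.55 on that of prep 4, and between -3.60 (rme-2, the yolk receptor of oocytes) and -1.09 (glh-4, a P granule helicase) by mean. Since germline genes helped to set how the ratio was read, the side of these markers is not independent evidence. Of 8 measured seam and vulval precursor markers, which label dividing somatic cells of larvae, 1 was higher (nhr-73, 1.84 ± 0.70) and none lower, with a median of -0.17. By unadjusted limma p under 0.05, the counts were 3 lower and 1 higher, beside 18.2% and 17.1% of all features. The 3, named after their values were seen, were ceh-16 (-0.77 ± 0.39), rnt-1 (-0.52 ± 0.23) and egl-18 (-0.50 ± 0.11), each below the median on all 3 arrays. Intestine markers were higher for 6 of 7 and body wall muscle markers for 4 of 5, and none of 7 neuron markers passed. Over all features, 8.37% were lower and 8.26% higher by the adjusted p. No marker of these lists has a level here, since the values are ratios. In these whole animals, fewer cells of a type and less RNA per cell cannot be told apart, and the part of the germline markers in the cyclin results was not tested.

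**Figure D4:**
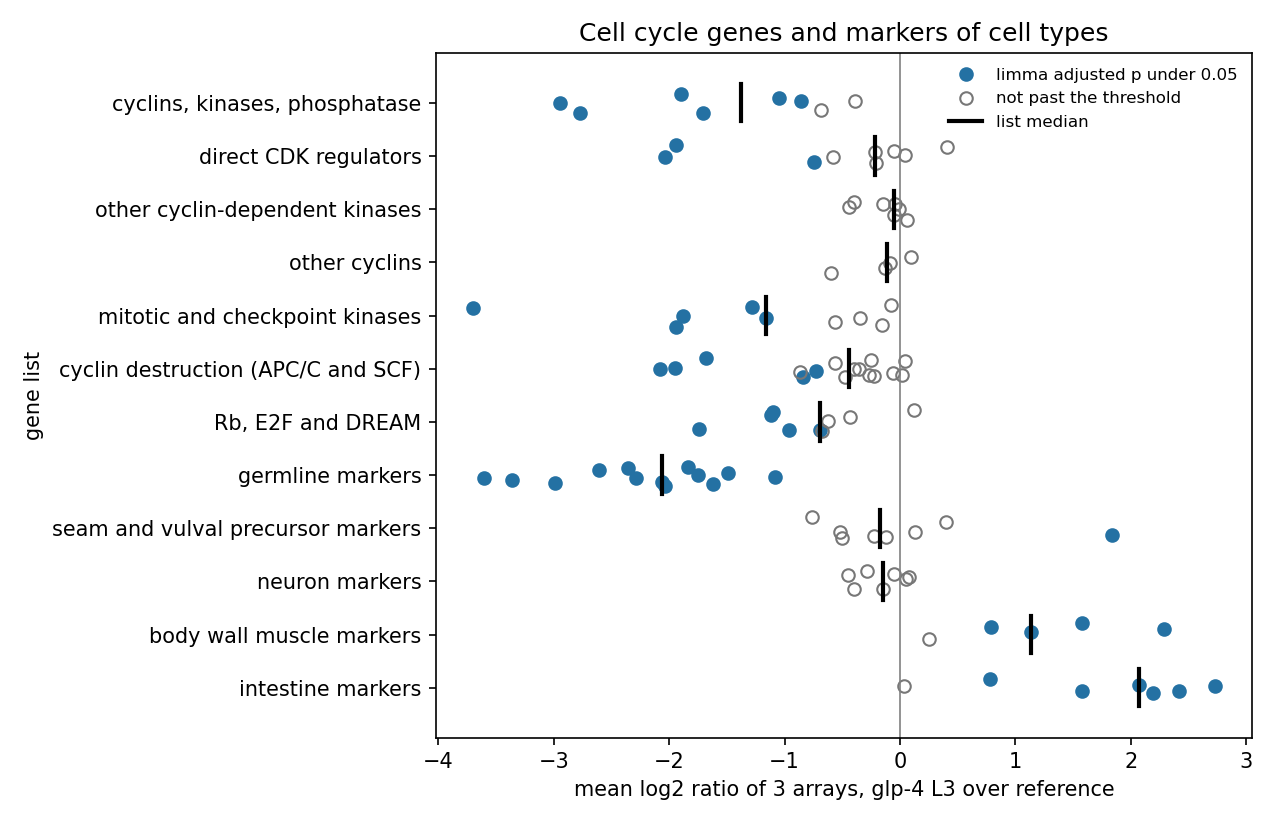
Mean log2 ratio of 3 arrays, glp-4 L3 over reference (x axis), for each measured gene of the cell cycle lists and of the cell type marker lists (rows). Filled points passed the limma threshold, open points did not, and the black bar is the list median, at -1.38 for the cyclins and kinases, -2.06 for germline markers, -0.17 for seam and vulval precursor markers and 2.08 for intestine markers.

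The named genes most like the B-type pair were sought among 14678 others, by the Euclidean distance of their 3 values from the mean of cyb-1 and cyb-3. The nearest 5 were C14B1.2 (distance 0.225), gna-2 (0.237), which encodes an enzyme of amino sugar synthesis used for the eggshell, him-3 (0.243), of the meiotic chromosome axis, pot-2 (0.28), a telomere-binding gene, and C29A12.1 (0.309). Their means lay between -2.99 ± 0.19 for him-3 and -2.76 ± 0.33 for C29A12.1. The distance of cyb-1 or cyb-3 from their own mean was 0.374, so these genes lay nearer to it than either cyclin gene. With 3 arrays, this is likeness of size more than of pattern.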

How the data were processed

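For 21632 probes on 3 arrays, the deposited values were taken to be log2 ratios of the 2 channels. Of the values below 0, 100% on each array are logarithms of ratios rounded to thousandths (tolerance 0.01 of a thousandth). The medians of the deposited log2 values were -0.0072, -0.0247 and -0.0262 with preps 1, 3 and 4. Which scanner, dyes, background correction or normalization the authors used is not given in the sources used here. No intensities were used, so which probes lay near background is unknown, and the small number of arrays limits the precision.

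A platform annotation gave 1 gene for 16450 probes, several for 247 and none for 4935, and symbols were updated through RefSeq genes of assembly WBcel235 (16360 single-gene probes by gene number, 8 by accession). It names no build, so no coordinates are given.

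The median of each array was set to 0, and where a gene had several probes their mean was used. Each of the 8 measured cyclin, kinase and phosphatase genes had 1 probe. The mean of the 3 arrays was tested against 0 with limma (version 3.58.1, R 4.3.3; lmFit, eBayes) over 19580 features measured on all arrays, with Benjamini-Hochberg adjustment. The reference counts as 1 control RNA, so its own spread is left out. In 20 simulated runs of this comparison, 200 of 19580 features were changed. Of 2-fold changes (1 log2 unit), 1.94% were recovered, against 76% at 2 and 94.4% at 3 log2 units, and 4.02% of calls were false. The data had far more calls, 1617 higher and 1638 lower, so their cutoff on unadjusted p was looser. The recovered shares therefore do not carry over to the data.

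Gaps between B-type and D- or E-type genes were taken within arrays. Of 8 such pairs intended, 4 involve cyb-2.1 or cyb-2.2 and had no values. The genes and lists were chosen with earlier results of these data known. Named by rule were all measured genes of the group, up to 4 members past the threshold in each list, listed direct partners, and the 5 nearest genes. Each prep was left out in turn. Further alternatives were no centring, equal median absolute deviations, quantile normalization, features with 1 missing array, probes tested singly, robust eBayes, a 2-fold limit and, added after the data were seen, array weights.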

Additional observations from a re-analysis of the deposited data

How the results depend on the processing

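No paired analysis was possible because the series holds a single group. Under all 11 alternatives, every measured gene of the cyclin group kept its side of the reference. All 8 lay below the array median on every array, so this was all but fixed in advance and adds no support. The number past the threshold was between 4 (without prep 3, or without prep 4) and 7 (without prep 1, or with array weights), beside 6 of 8, and none was higher in any setting. At a 2-fold limit it was 5, where cya-1 dropped out. The number of all features called lower moved as well. It was 3464 without prep 1 and 4161 with array weights, beside 1638 in the main fit. The 4 gaps of B-type against D- and E-type genes kept their sign in each of the 7 alternatives in which they were recomputed. That outcome was fixed in advance, since the B-type gene was the lower on every array and these settings keep the order within an array. With a prep left out, the count of all features ranged between 174 and 3211 higher and between 212 and 3464 lower, and that of the 6 cell cycle lists between 4 and 21 lower. With array weights there were 3938 higher and 4161 lower features, and the cell cycle lists had 25 lower genes and 1 higher, wee-1.1 (0.59, limma adjusted p = 0.0314). Fits without a prep have 2 arrays and fewer degrees of freedom. The Pearson correlation over probes was 0.835 for preps 3 and 4, 0.645 for preps 1 and 3 and 0.599 for preps 1 and 4. Why prep 3 mattered more than prep 1 was not tested. Preps 3 and 4 alone give the only value within arrays of like titles; prep 1 has none of its own.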
